A study of Danio rerio with 12 samples.

Results

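A stretch of zebrafish chromosome 22 holds 24 genes named after the sequencing clone they were found on, and reads from them were about 10.1 times as abundant in melanomas with a MyrRSK transgene as in melanomas with GFP. The genes were chosen by position and name in the Zv9 build: every gene that starts at or after chr22:19005000 and ends at or before chr22:20200000, which gave 42 of the 27827 genes in the table. Of these, 24 are clone-named (13 with the prefix si:dkey-21e2 and 11 with si:dkey-78l4). Another 4 lie between them, inside a block that runs from chr22:19493980 to chr22:19837118 (343.139 kb), and 14 flank it, 9 on the left and 5 on the right. The window was picked because its genes already stood out in these same tumours, so the MyrRSK against GFP values below are a description, and they carry no test of their own.

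Clone names such as si:dkey-78l4.2 are placeholders given during sequencing of the zebrafish genome, before a gene has been studied or matched to a relative in another animal. Genes that arose by repeated duplication often lie side by side in such runs, and close copies can be hard to tell apart with short reads. The table gives a human ortholog for 1 of the 24, si:dkey-78l4.12, which is listed beside GZMB, and the right flank opens with a gene listed beside GZMA. GZMA and GZMB encode granzymes, serine proteases that killer lymphocytes store in granules and release into target cells. For the other 23 clone-named genes the sources used here give no function, and none is assigned. A current RefSeq gene table matched 14 of the 24 by symbol or synonym, all 14 on chromosome 22, and lists si:dkey-21e2.16 under the name swift. By biotype 20 are protein-coding, 3 (si:dkey-21e2.5, si:dkey-21e2.6 and si:dkey-78l4.3) are processed transcripts, and si:dkey-21e2.9p is a pseudogene.

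The study sequenced polyA RNA of 12 zebrafish melanomas, 6 of the genotype MiniCoopR-GFP and 6 of the genotype MiniCoopR-MyrRSK. MiniCoopR is a transposon vector that carries a working copy of mitfa, the master regulator of melanocytes, together with a gene to be tested, so that rescued melanocytes carry both; it is shared by all 12 tumours. GFP, a fluorescent protein, is the control cargo, and MyrRSK is by its name a myristoylated RSK. RSK is a kinase family that acts downstream of ERK in the MAPK pathway. The host line, any tumour-initiating transgene, the promoter that drives the cargo, and the age and sex of the fish are not stated in the labels. The labels number the samples but do not say that each came from a separate fish, so p-values measure only the spread between these samples, which may be partly technical.

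Libraries held 61750434 to 72257237 counts each, and no pair of them was the same library. The 13 melanocyte markers, mitfa, pmela and dct among them, summed to 2054 to 36661 CPM (counts scaled to library size by the TMM method) in GFP and to 4629 to 18901 in MyrRSK tumours, and none of them was at 0 in any library. GFP 1 and GFP 2 lay far from the rest on the leading principal component, which held 18.2% of the variance. MyrRSK 2 and MyrRSK 4 were highest in skeletal muscle markers. The median log2 fold change of the clone-named genes and the numbers of calls are given with and without these libraries. The marker list medians and the correlations are not given without them.

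The 24 clone-named genes together were low in every GFP tumour and higher in every MyrRSK tumour. Their summed CPM was 38.4, 70, 85.8, 7.66, 25.3 and 108 in GFP 1 to GFP 6, a mean of 55.8 ± 38.3 (SD, n = 6). In MyrRSK 1 to MyrRSK 6 it was 788, 328, 491, 284, 310 and 1177, a mean of 563 ± 355 (SD, n = 6). The groups did not overlap: the lowest MyrRSK tumour, MyrRSK 4, stood 2.64 times above the highest GFP tumour, GFP 6. The log2 difference of the sums was 3.56 ± 0.67 (SE). Leaving out 1 library at a time put the ratio of means between 7.89 (without MyrRSK 6) and 12.4 (without GFP 6). In raw counts the 24 genes took 512 reads in GFP 4 and 8594 in GFP 6, against 16556 in MyrRSK 4 and 76985 in MyrRSK 6, so 0.000709% to 0.0129% of a GFP library and 0.0248% to 0.114% of a MyrRSK library. These are bulk tumours, in which fewer cells of a type and less RNA per cell cannot be told apart.

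**Figure D1:**
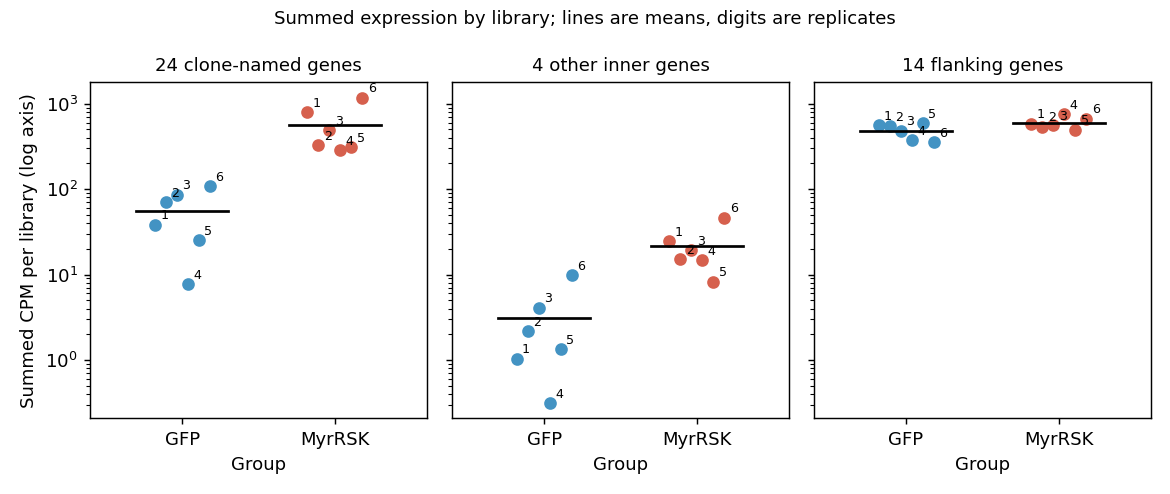
Summed CPM per library on a log axis for the 24 clone-named, 4 other inner and 14 flanking genes, GFP in blue and MyrRSK in red, with a line at each group mean and digits for the replicate numbers. The clone-named sums run from 7.66 to 108 in GFP and from 284 to 1177 in MyrRSK, while the flanking sums overlap at 355 to 593 and 495 to 750.

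Tumours within a group also differed widely. The highest GFP sum was 14 times the lowest and the highest MyrRSK sum 4.15 times the lowest. GFP 4 had the lowest GFP value for 21 of the 24 genes, and GFP 6 had the highest for 12, GFP 3 for 6 and GFP 1 for 5. MyrRSK 6 had the highest MyrRSK value for 18 genes, while the lowest lay in MyrRSK 2 for 8, in MyrRSK 4 for 8 and in MyrRSK 5 for 5. The median SD of log2 CPM over the 24 genes was 1.53 in GFP and 1.16 in MyrRSK, against 0.66 and 0.50 over all 26866 genes tested.

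All 24 clone-named genes had a positive fitted log2 fold change, with a median of 3.29 against -0.07 over all genes tested. The values ran from 1.97 (si:dkey-78l4.12) to 4.01 (si:dkey-21e2.3), and 23 of the 24 were above 2, a size reached by 1.17% of all genes. The authors' deposited log2 fold changes had a lower median over the 24, 1.94, against -0.06 over all genes. DESeq2 fitted here to the same counts gave a median of 3.30 over the 24. The deposited values may therefore be on another scale, and the reason for the gap was not tested. In 14 of the 24 all 6 MyrRSK tumours lay above all 6 GFP tumours, which held for 1.01% of all genes, and in 7 more 5 MyrRSK tumours did (5 or more in 3.02% of all genes). In all 24 the MyrRSK median lay above the highest GFP value, as it did in all 4 other inner genes and 1 of the 14 flanking genes. The share of all genes in which this held was not measured, so nothing is read from these counts. For si:dkey-21e2.5 the margin was small, a median of 1.48 CPM against a GFP maximum of 1.2. By edgeR's quasi-likelihood test over all genes (Benjamini-Hochberg adjustment, 0.05), 8 of the 24 were called higher and 0 lower, against 0.29% and 0.115% of all genes. All 24 had an unadjusted p under 0.05 in the positive direction, as did 7.18% of all genes. DESeq2 called 23 higher (2.91% of the genes it adjusted), all but si:dkey-21e2.5, and the authors' deposited table lists 20 as higher at an adjusted p under 0.05 (2.88% of its adjusted genes) and gives no adjusted p for the other 4. Since the window was chosen on this contrast, nothing is read from these shares. The call counts were fragile: edgeR called 0 of the 24 without GFP 2 and 0 without MyrRSK 4, where 23 still had an unadjusted p under 0.05 in both cases. The median log2 fold change stayed between 2.93 and 3.70 whichever library was left out.

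**Figure D2:**
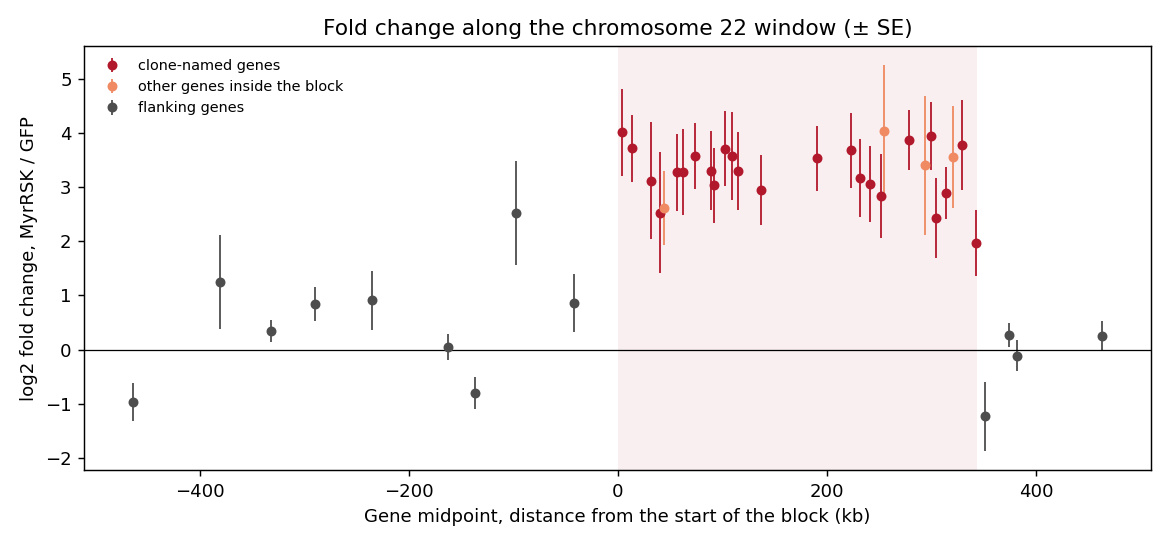
Fitted log2 fold change (MyrRSK over GFP, bars are SE) of the 41 tested genes against the distance of the gene midpoint from the start of the block in kb, with the block shaded. Inside the block every point lies between 1.97 and 4.04, and in the flanks points lie between -1.23 and 2.53.

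On each side the fold change was lower in the first gene outside the block than in the last gene inside it. The window was picked on this contrast, so the drop at the edges is a description. On the left, si:dkey-21e2.3 (chr22:19493980-19501835), the first clone-named gene, had a log2 fold change of 4.01 ± 0.80 (SE). Its outer neighbour fgf22, a fibroblast growth factor gene that ends 19.32 kb away, had 0.86 ± 0.53. On the right, si:dkey-78l4.12 (chr22:19835531-19837118) had 1.97 ± 0.61. The GZMA-listed gene ENSDARG00000042003, which starts 4.65 kb further on, had -1.23 ± 0.64. The drop on the right rests on few reads, 11 to 185 counts per library for si:dkey-78l4.12 and 3 to 89 for ENSDARG00000042003. Each value also leaned on 1 library: si:dkey-78l4.12 had 1.33 without MyrRSK 6, and ENSDARG00000042003 had -0.59 without GFP 1. The sums of both clone prefixes behaved alike: the 13 si:dkey-21e2 genes went from 27.1 ± 19.6 CPM in GFP to 285 ± 198 in MyrRSK, a ratio of 10.5. The 11 si:dkey-78l4 genes went from 28.6 ± 19.6 to 278 ± 160 (SD, n = 6 per group), a ratio of 9.7.

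Among the si:dkey-21e2 genes, si:dkey-21e2.13 (chr22:19595757-19597059) ran from 0.554 CPM in GFP 4 to 11.8 in GFP 6, with a median of 3.53. In MyrRSK it ran from 24.5 in MyrRSK 5 to 148 in MyrRSK 6, with a median of 32.3, so the groups did not overlap. Its log2 fold change was 3.71 ± 0.69 (SE). si:dkey-21e2.10 (chr22:19565584-19569063) spanned 0.464 to 10.1 CPM in GFP (median 4.12) and 22.5 to 94.2 in MyrRSK (median 51.8). Here too every MyrRSK tumour was above every GFP tumour, MyrRSK 2 by the least, and the log2 fold change was 3.57 ± 0.61. The gene si:dkey-21e2.4 (chr22:19507191-19508476) spanned 0.165 to 1.4 CPM in GFP, median 0.911, and 5.1 to 24.4 in MyrRSK, median 7.62. Its groups were apart, and its share of the clone-named counts was narrow, 1.04% to 2.15% over all 12 libraries, with a log2 fold change of 3.72 ± 0.62. These 3 are the si:dkey-21e2 genes called higher by edgeR.

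The other si:dkey-21e2 genes among the 12 with the most reads had similar fold changes without a call. For si:dkey-21e2.11 GFP tumours spanned 0.299 to 6.18 CPM (median 2.91), MyrRSK tumours 10.6 to 60.5 (median 22.9). Those of si:dkey-21e2.12 ran 0.194 to 4.08 (median 2.57) and 4.5 to 35.6 (median 15.1). Those of si:dkey-21e2.15 ran 0.269 to 6.49 (median 2.87) and 8.54 to 84.9 (median 19.4). None of these 3 genes, at chr22:19582517-19584109, chr22:19585324-19586609 and chr22:19608015-19609590, overlapped between groups, though the gap was small for si:dkey-21e2.12, where GFP 6 at 4.08 lay just under MyrRSK 5 at 4.5. Their log2 fold changes were 3.30 ± 0.73, 3.03 ± 0.69 and 3.30 ± 0.72 (SE). The gene listed as swift, si:dkey-21e2.16 (chr22:19629740-19632067), had 0.359 to 6.62 CPM in GFP, median 3.32, and 8.99 to 63.4 in MyrRSK, median 20.2. Its groups were also apart, with a log2 fold change of 2.95 ± 0.65. For si:dkey-21e2.8 (chr22:19548763-19552248) GFP ran from 0.314 to 4.72 CPM, median 1.53, and MyrRSK from 6.61 to 38, median 12. MyrRSK 2 was the lowest of its group and still above GFP 6, and the log2 fold change was 3.27 ± 0.71. For si:dkey-21e2.14 (chr22:19602307-19603629) GFP ran from 0.0748 to 2.92 CPM, median 0.88, and MyrRSK from 2.35 to 38.3, median 6.37. This gene overlapped, since MyrRSK 4 at 2.35 fell under GFP 6 at 2.92, and its log2 fold change was 3.57 ± 0.81.

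**Figure D3:**
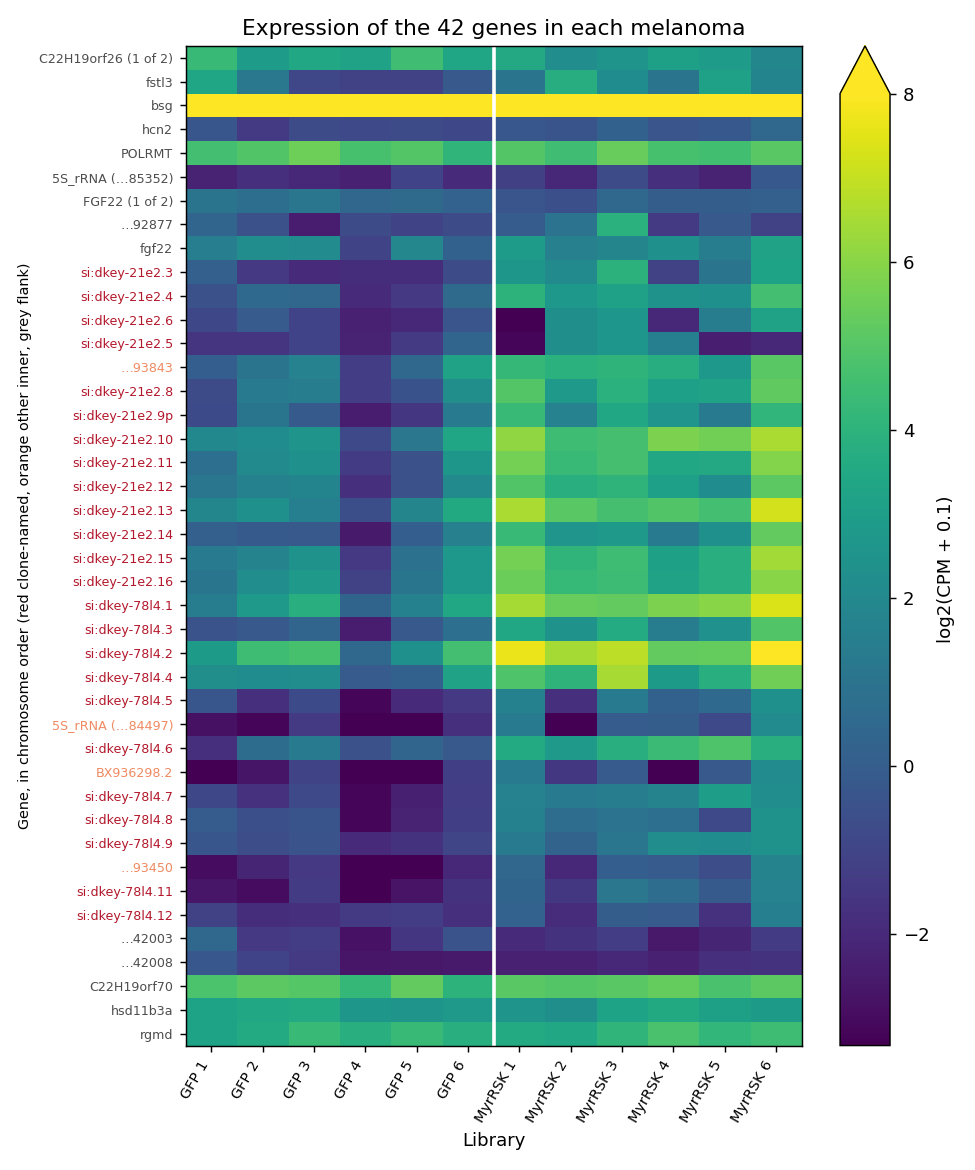
Expression of the 42 genes as log2(CPM + 0.1), rows in chromosome order and columns by library, with colours capped at 8. The rows of the block are darker in the 6 GFP columns, darkest in GFP 4, and brighter in the MyrRSK columns. Flanking rows differ in level, from bsg (287 to 628 CPM), bright throughout, to ENSDARG00000042008 (0.0598 to 0.737 CPM), dark throughout.

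Among the si:dkey-78l4 genes, si:dkey-78l4.2 (chr22:19723846-19726430) took the most reads of the block on average, 23.3 ± 6.27% of the clone-named counts in GFP and 21.2 ± 6.15% in MyrRSK (SD, n = 6 per group). Its CPM ran from 1.29 to 26 in GFP, median 14.6, and from 39.3 to 277 in MyrRSK, median 103. The groups were apart, with MyrRSK 4 and MyrRSK 5 closest to GFP, and the log2 fold change was 3.16 ± 0.72 (SE). Without si:dkey-78l4.2 the ratio of the summed means of the other 23 genes was 10.5. The next gene to the left but one, si:dkey-78l4.1 (chr22:19683601-19685775), ran from 1.15 to 13.9 CPM in GFP, median 4.99, and from 39 to 162 in MyrRSK, median 59. Its lowest MyrRSK value, in MyrRSK 3, was well above GFP 3, the highest of the controls, and its log2 fold change was 3.53 ± 0.60. Between them lies the processed transcript si:dkey-78l4.3 (chr22:19715555-19718264), at 0.0898 to 1.65 CPM in GFP, median 0.793, and 2.56 to 30 in MyrRSK, median 8.13. Its groups were apart and its log2 fold change was 3.68 ± 0.69. The value of 30 came from MyrRSK 6 alone, the next being 12.3.

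Further right, si:dkey-78l4.6 (chr22:19772151-19773478) had 0.192 to 2.33 CPM in GFP, median 0.985, and 6.69 to 29 in MyrRSK, median 13.4. Every MyrRSK tumour was above every GFP tumour, and its call was the steadiest of the 8, kept in 10 of the 12 fits that left out 1 library, with a log2 fold change of 3.87 ± 0.55 (SE). The gene si:dkey-78l4.7 (chr22:19792133-19794578) had 0.015 to 0.466 CPM in GFP, median 0.261, and 2.41 to 8.08 in MyrRSK, median 3.16. Its groups were apart, with a log2 fold change of 3.95 ± 0.63, and the call was kept in 8 of the 12 fits. For si:dkey-78l4.9 (chr22:19805040-19809958) GFP ran from 0.165 to 0.708 CPM, median 0.472, and MyrRSK from 1.13 to 5.38, median 3.46. Its log2 fold change was smaller than most, 2.90 ± 0.48, but the spread was small too, and the call was kept in 6 of the 12. The calls of the other 5 were kept in 2 (si:dkey-78l4.3) to 7 (si:dkey-21e2.4) of the 12. The 8 called genes had log2 fold changes of 2.90 to 3.95, inside the 1.97 to 4.01 of the whole set.

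The remaining clone-named genes were lower in counts or less even. The pseudogene si:dkey-21e2.9p had a mean of 1.02 ± 0.987 CPM in GFP and 9.96 ± 7.48 in MyrRSK (SD, n = 6 per group). For si:dkey-21e2.3 the means were 0.384 ± 0.33 and 6.25 ± 5.51, and MyrRSK 4, at 0.36, was the only MyrRSK tumour under the GFP maximum of 1. The means of si:dkey-78l4.5 were 0.304 ± 0.249 and 2.2 ± 1.74, those of si:dkey-78l4.8 were 0.429 ± 0.333 and 2.32 ± 1.69, and those of si:dkey-78l4.11 were 0.108 ± 0.12 and 1.51 ± 1.02. In each of these, as in si:dkey-21e2.9p and si:dkey-21e2.3, 5 MyrRSK tumours lay above all GFP tumours. The GZMB-listed gene si:dkey-78l4.12 was the least changed, with a mean of 0.257 ± 0.0761 CPM in GFP and 1.01 ± 0.97 in MyrRSK. Only 4 MyrRSK tumours exceeded the GFP maximum of 0.369, MyrRSK 2 at 0.17 lay under every GFP tumour, and MyrRSK 6 alone reached 2.83, the next being 1.09. Without MyrRSK 6 its log2 fold change was 1.33.

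A pair of neighbouring processed transcripts, si:dkey-21e2.6 (chr22:19524650-19525816) and si:dkey-21e2.5 (chr22:19533351-19534517), were listed at equal or nearly equal counts in some tumours and far apart in others. si:dkey-21e2.5 had counts of 15, 16, 26, 8, 17 and 96 in GFP 1 to GFP 6 and 1, 319, 405, 165, 6 and 9 in MyrRSK 1 to MyrRSK 6. si:dkey-21e2.6 had 30, 60, 26, 7, 9 and 56 in GFP, then 0, 319, 404, 8, 172 and 592 in MyrRSK. Both stood at 26 in GFP 3 and at 319 in MyrRSK 2, both were near 0 in MyrRSK 1, and in MyrRSK 4, MyrRSK 5 and MyrRSK 6 one was high while the other was near the GFP level. How the authors' counting shared reads between close copies is not stated in the labels, so the split between these transcripts is uncertain. The same holds, to a degree that was not tested, for any close copies in the rest of the block.

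The mix of clone-named genes also varied between MyrRSK tumours. In MyrRSK 4 and MyrRSK 5 si:dkey-21e2.10 held 19.4% and 15.7% of the clone-named counts, above its 5.2% to 9.87% in the other 10 libraries, and si:dkey-78l4.2 had its lowest shares, 13.9% and 13.1%. The share of si:dkey-78l4.6 was 7.45% and 9.38% in those tumours and 7.81% in GFP 4, against 0.499% to 4.67% elsewhere. MyrRSK 3 was set apart by si:dkey-78l4.4 (chr22:19733409-19736079), which held 18.9% of its clone-named counts. In CPM si:dkey-78l4.4 ran from 0.853 to 9.06 in GFP, median 4.47, and from 7.15 in MyrRSK 4 to 92.5 in MyrRSK 3, median 23.1. MyrRSK 4 fell under GFP 6 for this gene, and its log2 fold change of 3.05 ± 0.70 (SE) became 2.45 without MyrRSK 3.

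**Figure D4:**
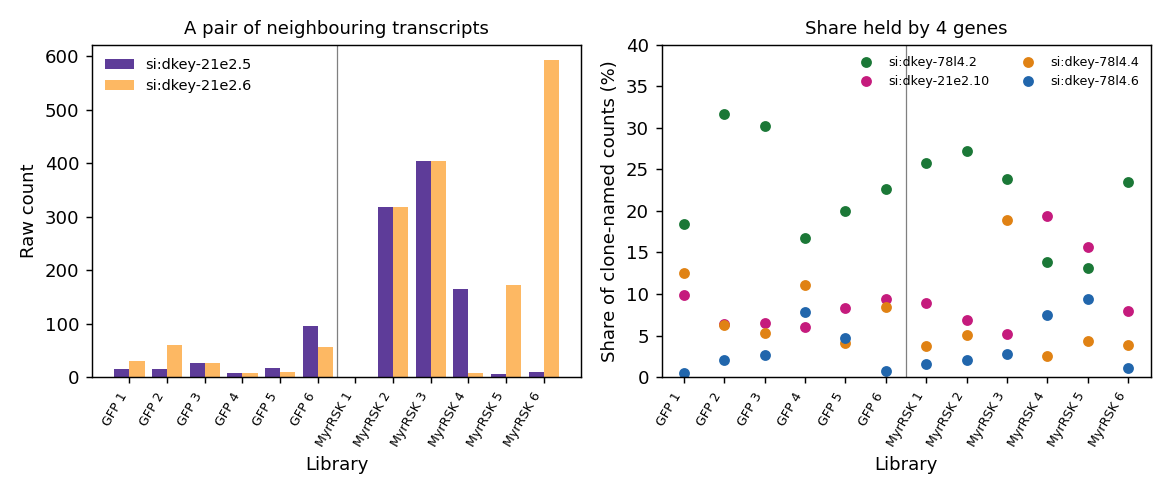
Left, raw counts of si:dkey-21e2.5 and si:dkey-21e2.6 per library; right, the share of clone-named counts (%) held by si:dkey-78l4.2, si:dkey-21e2.10, si:dkey-78l4.4 and si:dkey-78l4.6. The transcripts on the left match at 319 in MyrRSK 2 and part in MyrRSK 6 (9 and 592), and on the right si:dkey-21e2.10 reaches 19.4% in MyrRSK 4 and si:dkey-78l4.4 reaches 18.9% in MyrRSK 3.

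The 4 other genes inside the block were also at a higher level in MyrRSK tumours, with summed means of 3.12 ± 3.52 CPM in GFP and 21.3 ± 13.2 in MyrRSK (SD, n = 6 per group), a ratio of 6.83. Their groups overlapped, since MyrRSK 5 at 8.27 lay under GFP 6 at 9.81. Most of these reads came from ENSDARG00000093843 (chr22:19537137-19539386), a protein-coding gene with no symbol in the table. Its CPM was 0.958, 1.97, 3.12, 0.314, 1.33 and 9.15 in GFP 1 to GFP 6 and 18.6, 14.8, 16.5, 13, 6.48 and 34.1 in MyrRSK 1 to MyrRSK 6. MyrRSK 5 alone fell under the GFP maximum, which was set by GFP 6 alone, and its log2 fold change was 2.62 ± 0.68 (SE), or 3.49 without GFP 6. The other 3, a 5S_rRNA copy, BX936298.2 and ENSDARG00000093450, had log2 fold changes of 4.04 ± 1.21, 3.40 ± 1.29 and 3.55 ± 0.94 from few reads. ENSDARG00000093450, for example, had 0 to 18 counts in GFP and 9 to 211 in MyrRSK. BX936298.2 and the 5S_rRNA copy were listed at nearly equal counts in MyrRSK 1 (158 and 159), MyrRSK 3 (56 and 58) and MyrRSK 6 (278 and 284), though they lie on either side of si:dkey-78l4.6, and in MyrRSK 4 they had 0 and 53. edgeR called 0 of the 4 higher, against 0.29% of all genes, though all 4 had an unadjusted p under 0.05 in the positive direction (7.18% of all genes). DESeq2 called 3 (2.91%) and the authors' deposited table lists 2 as higher (2.88%). As for the clone-named genes, nothing is read from these shares.

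The 14 flanking genes, by comparison, had a summed CPM of 485 ± 99.8 in GFP and 598 ± 93.5 in MyrRSK (SD, n = 6 per group), a ratio of 1.23. Of the 13 with enough reads to be tested, 9 had positive and 4 negative log2 fold changes with a median of 0.27. Of the flanking genes 0 were called by edgeR, DESeq2 or the authors' deposited table. Over all genes edgeR called 0.29% higher and 0.115% lower. DESeq2 called 2.91% of its adjusted genes higher, and the deposited table lists 2.88% as higher. With shares this small, nothing is read from the 0 calls. In edgeR's test 2 flanking genes were higher and 2 lower with an unadjusted p below 0.05, which 7.18% and 8.33% of all genes reached. The median was 0.84 over the 9 left genes and 0.07 over the 4 tested right genes. No flanking gene had all 6 MyrRSK tumours above all GFP tumours, which held for only 1.01% of all genes.

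Most flanking reads came from bsg (chr22:19153514-19170539), which encodes basigin, a membrane glycoprotein that escorts lactate transporters to the cell surface. It had 287 to 468 CPM in GFP, median 397, and 396 to 628 in MyrRSK, median 460, with overlapping groups and a log2 fold change of 0.34 ± 0.20 (SE). POLRMT, the mitochondrial RNA polymerase, spans chr22:19242091-19420640, with several smaller genes of the left flank inside its span. It had 16.7 to 44.7 CPM in GFP and 22.8 to 40.8 in MyrRSK, medians of 28.2 and 28.8, and a log2 fold change of 0.04 ± 0.24. C22H19orf70, named for a human gene of a mitochondrial inner-membrane complex, had medians of 30.1 and 34.1 CPM and a log2 fold change of 0.27 ± 0.22. Just 183 bases beyond it, hsd11b3a, a steroid dehydrogenase family gene, had medians of 7.99 and 7.82 and a log2 fold change of -0.11 ± 0.28. The last gene of the window, rgmd, of the repulsive guidance molecule family, had medians of 13.8 and 17.3 and a log2 fold change of 0.26 ± 0.26. At the far left end C22H19orf26 had medians of 10.5 in GFP and 6.68 in MyrRSK, with a log2 fold change of -0.96 ± 0.35. In all 6 of these genes the groups overlapped.

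Close to the block the left flank was uneven. fgf22 itself (chr22:19429773-19474661) ran from 0.404 to 4.62 CPM in GFP, median 3.23, and from 2.6 to 9.24 in MyrRSK, median 4.27. As in the block, GFP 4 was its lowest and MyrRSK 6 its highest tumour, but the groups overlapped. ENSDARG00000092877 (chr22:19395174-19398520), which lies within the POLRMT span, had 0.0901 to 1.21 CPM in GFP and 0.274 to 1.91 in 5 MyrRSK tumours, but 14.9 in MyrRSK 3. Its log2 fold change of 2.53 ± 0.96 (SE), the largest in the flanks, was 0.61 without that tumour. FGF22 (1 of 2), a second copy of the growth factor gene, lay the other way, at 1.08 to 2.1 CPM in GFP and 0.586 to 1.28 in MyrRSK, with a log2 fold change of -0.80 ± 0.29. The follistatin-like gene fstl3 was at 0.359 to 2.22 CPM in 5 GFP tumours and at 10.1 in GFP 1, against 1.94 to 13.2 in MyrRSK. Its log2 fold change of 1.25 ± 0.86 was 2.75 without GFP 1. The pacemaker channel gene hcn2 (0.489 ± 0.143 and 0.877 ± 0.264 CPM) and a 5S_rRNA copy in the left flank (0.185 ± 0.0998 and 0.346 ± 0.261) were low in both groups (SD, n = 6 per group). Their log2 fold changes were 0.84 ± 0.32 and 0.91 ± 0.54 (SE). In hcn2 4 MyrRSK tumours lay above all GFP tumours, and its MyrRSK median of 0.75 CPM was just above the GFP maximum of 0.722.

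On the right, the GZMA-listed ENSDARG00000042003 (chr22:19841769-19848393) was at 0.0449 to 1.31 CPM in GFP, median 0.29, and 0.0686 to 0.319 in MyrRSK, median 0.19. All MyrRSK values lay within the GFP range, and the highest value, 1.31, was GFP 1, without which the log2 fold change was -0.59. The next gene, ENSDARG00000042008, listed beside KLK6, a kallikrein-related serine protease, had too few reads to be tested, with means of 0.269 ± 0.267 CPM in GFP and 0.142 ± 0.0479 in MyrRSK (SD, n = 6 per group).

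Tumour by tumour, most block genes followed one another within each group. The log2 CPM of each gene, taken as its deviation from the group mean, was set against that of the summed CPM of the other clone-named genes over the 12 libraries. The median Pearson r was 0.86 over the 24 genes, 19 of them above 0.5, with si:dkey-21e2.16 highest at 0.98. The 4 other inner genes ran from 0.64 to 0.90, with a median of 0.80. The flanking genes had a median of 0.16, and only fgf22 (0.64) and ENSDARG00000042003 (0.66) were above 0.5. Within the 6 GFP tumours alone the median for the clone-named genes was 0.88, and within the 6 MyrRSK tumours it was 0.81, with 21 and 19 of the 24 above 0.5. Those under 0.5 within GFP were si:dkey-78l4.12 (-0.63), si:dkey-21e2.3 (0.28) and si:dkey-78l4.6 (0.34). The flanking genes had medians of 0.15 and 0.18, with 3 and 5 of 14 above 0.5, among them the left 5S_rRNA copy (0.86), fgf22 (0.82), hcn2 (0.72) and POLRMT (0.66) within MyrRSK. In the same 6 tumours si:dkey-21e2.5 (-0.55), si:dkey-78l4.6 (-0.29), si:dkey-21e2.6 (-0.03) and si:dkey-78l4.7 (-0.01) were below 0. Over all 12 libraries the clone-named genes under 0.5 were si:dkey-21e2.5 (-0.06), si:dkey-78l4.6 (0.18), si:dkey-21e2.6 (0.21), si:dkey-78l4.12 (0.25) and si:dkey-21e2.3 (0.41). These values describe only 12 libraries. Within a library all genes share its depth and cell mix, and copies possibly share reads, so neighbouring genes are not independent of each other.

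Outside the window, of 3551 tested genes with an si: name, 5 were called higher and 5 lower by edgeR (0.29% and 0.115% of all genes), with a median log2 fold change of -0.20. Before adjustment 168 of them were higher and 364 lower at 0.05 (7.18% and 8.33% of all genes). DESeq2 called 66 higher and 128 lower, against 798 and 775 over all genes (2.91% of those it adjusted were higher). On chromosome 22 outside the window 1 of 1052 tested genes was called higher and 0 lower by edgeR. There 27 were higher and 89 lower at 0.05 before adjustment, beside the same 7.18% and 8.33%. DESeq2 called 11 of them higher and 36 lower, and the median was -0.13. The called gene was si:ch211-212d10.1, with a log2 fold change of 2.42 ± 0.39 (SE, adjusted p = 0.0241 in edgeR's test). Genes related to the listed orthologs were measured too. Of 9 granzyme and perforin orthologs outside the window, a list added after values were seen, 0 were called by edgeR or DESeq2. Before adjustment 1 was higher and 0 lower at 0.05 (7.18% and 8.33% of all genes), and the median was 0.20. The granzyme gene gzma, for example, was at 0.778 to 5.52 CPM in GFP and 2.16 to 5.35 in MyrRSK, with a log2 fold change of 0.17 ± 0.50 (SE, adjusted p = 0.893 in edgeR's test). prf1.5, a perforin gene, had 1.35 ± 0.53 (adjusted p = 0.238 in edgeR's test), the smallest p of that list. Among 34 tested proteases of the trypsin fold outside the window edgeR called 0 and DESeq2 called 1, in the lower direction, while 3 genes with positive and 5 with negative fold changes passed 0.05 before adjustment, against 7.18% and 8.33% of all genes. The median was -0.32. The coagulation protease gene f10 was nearest to a call, with 31.2 ± 24.5 CPM in GFP and 2.25 ± 1.53 in MyrRSK (SD, n = 6 per group) and a log2 fold change of -3.80 ± 0.81 (SE, adjusted p = 0.0607 in edgeR's test). Of 21 tested genes for serine protease inhibitors edgeR called 0, while DESeq2 called 2 higher and 2 lower. Before adjustment 2 were higher and 2 lower at 0.05 (7.18% and 8.33% of all genes), and the median was -0.01.

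Lists of immune cell markers were measured beside the block. None of them had a gene called by edgeR, which called 0.29% of all genes higher and 0.115% lower. Their summed CPM overlapped between groups in each case. Of 18 tested cytotoxic granule genes 6 passed 0.05 before adjustment, all with positive fold changes (7.18% of all genes), DESeq2 called 2 higher (2.91% of all genes), and the median log2 fold change was 0.40. The largest fold changes were those of 2 NK-lysin genes, listed as nkl.4 and nkl.3 among current names, which encode membrane-damaging granule peptides of killer cells: si:rp71-40n14.1 (4.17 ± 1.27, adjusted p = 0.137 in edgeR's test) and BX323450.3 (3.82 ± 1.14, adjusted p = 0.13). Both rested on MyrRSK 3, where si:rp71-40n14.1 was at 398 CPM against 1.78 to 31.5 in the other MyrRSK tumours. The granule proteoglycan gene srgn, which stands in 3 of the lists, averaged 125 ± 88.3 CPM in GFP and 364 ± 196 in MyrRSK, a log2 fold change of 1.54 ± 0.51 (adjusted p = 0.17 in edgeR's test). Its groups did not overlap, at 24.4 to 234 CPM in GFP and 242 to 762 in MyrRSK. Much of the cytotoxic granule sum was srgn and ctsc, the latter at 161 to 772 CPM over all libraries.

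The 21 T and NK cell markers had a median of 0.16 and sums of 265 to 865 CPM in GFP and 362 to 690 in MyrRSK, the GFP maximum being mostly runx3, at 736 CPM in GFP 3. For the 18 neutrophil markers the median was 0.67, 16 of them positive, with sums of 311 to 2614 and 983 to 3619. For the 21 macrophage markers it was 0.51, with sums of 1479 to 6745 and 4455 to 8205. The 10 mast cell and eosinophil markers had a median of 0.35 and sums of 628 to 1731 and 849 to 1698, and the 13 B cell markers a median of 0.40 and sums of 72.2 to 934 and 169 to 2660. Much of the mast cell and eosinophil sum was kita (257 to 1626 CPM over all libraries), a receptor gene that melanocytes also express. Before adjustment 2 T and NK, 4 neutrophil, 4 macrophage, 2 mast cell and eosinophil and 1 of the B cell markers were higher at 0.05. Of all genes tested 7.18% were. In the lower direction 1 macrophage marker and 0 of the others passed (8.33% of all genes). DESeq2 called 1, 1, 1, 2 and 0 of them higher and 0 lower, in the same order of lists (2.91% of the genes it adjusted were higher). All 6 MyrRSK tumours lay above all 6 GFP tumours in 2 mast cell and eosinophil markers and 1 neutrophil marker, srgn among them. This held for 0 T and NK, macrophage or B cell markers and for 1.01% of all genes. GFP 4, the tumour lowest in the block, was also lowest of its group in the summed T and NK, neutrophil, macrophage and cytotoxic granule lists. It was not lowest in B cell markers (232 CPM, against 72.2 in GFP 5) or in mast cell and eosinophil markers (1498, against 628 in GFP 3). MyrRSK 6, the highest in the block, was highest of its group in none of the immune lists, and MyrRSK 3 was the highest MyrRSK tumour in the cytotoxic, T and NK, macrophage and B cell lists. GFP 6, the GFP tumour highest in the block, had the lowest melanocyte marker sum, 2054 CPM. GFP 4 had 14539, and the highest sum, 36661, was in GFP 5, also low in the block. Among MyrRSK tumours the lowest melanocyte sum was 4629 in MyrRSK 3, against 11389 in MyrRSK 6. The part these cell types have in the block's values was not tested. None of the immune markers measured was at 0 in any library.

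Pancreatic acinar markers, which include digestive proteases, had sums of 8.48 to 52.1 CPM in GFP and 10.5 to 26.4 in MyrRSK. Their median was -0.17, and edgeR called 0 of 12 tested genes (0.29% of all genes were called higher and 0.115% lower). Before adjustment 2 were higher and 1 lower at 0.05 (7.18% and 8.33% of all genes), and DESeq2 called 0 higher and 1 lower. The 20 keratinocyte markers had a median of -0.51, with sums of 5933 to 15595 and 4755 to 9813 CPM. The 13 melanocyte markers had a median of -0.32, and edgeR called 0 in each of these lists. In each, 1 was higher and 3 lower at 0.05 before adjustment, beside the same 7.18% and 8.33%. DESeq2 called 0 keratinocyte markers, and 0 melanocyte markers higher and 2 lower. Over all genes it called 798 higher and 775 lower. Of the skeletal muscle markers edgeR called 3 of 28 tested higher (0.29% of all genes) and DESeq2 21 (2.91%), 21 were higher before adjustment at 0.05 (7.18%), and the median was 3.19. Their sums, 109 to 1245 CPM in GFP and 242 to 1443 in MyrRSK, were mostly atp2a1, a calcium pump gene at 57.2 to 1194 CPM over all libraries. Several of them, pvalb2 and ckmb for example, were at 0 in at least 1 GFP tumour. myhz2, a fast-muscle myosin gene, was at 0.225 to 0.821 CPM in GFP and at 0.365 to 61.1 in MyrRSK, with MyrRSK 2 and MyrRSK 4 highest (log2 fold change 5.52 ± 0.99, adjusted p = 0.036 in edgeR's test). Those tumours were among the lowest MyrRSK tumours in the block. Without both of them the median log2 fold change of the clone-named genes was 3.64, while the number called went from 8 to 0 and 23 of 24 kept an unadjusted p under 0.05. Without both GFP 1 and GFP 2 the median was 3.32 and 1 was called.

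The genes elsewhere that varied most like the block were found by the Pearson correlation of log2 CPM with the summed clone-named CPM, among 20768 genes outside the window with a mean of at least 1 CPM. Taken over all 12 libraries this mainly ranks genes that differ between the groups. The first was si:ch211-212d10.1, another clone-named gene on chromosome 22 (chr22:18754482-18758349), which lies left of the window. Its CPM was 0.628 to 4.51 in GFP, lowest in GFP 4 as in the block, and 10.2 to 20.6 in MyrRSK, so the groups were apart. The cytokine genes il4 and il13 were the second and the fifth. il13 had 0.427 to 4.2 CPM in GFP and 7.97 to 35.1 in MyrRSK, and il4 had 0 to 0.676 and 1.28 to 5.2. The others were both copies of RNF130, TMEM66, rccd1 and xrcc4, each with mean levels under 2 times apart between the groups.

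With group means removed, the first was cd74a, the invariant chain gene of MHC class II antigen presentation, at r = 0.90 over the 12 libraries. This gene is also among the 21 macrophage markers measured above. Its r was 0.96 within GFP and 0.78 within MyrRSK, Spearman's rho was 0.87, and r was 0.79 without GFP 6 and GFP 4. In those libraries the log2 clone-named sum lay farthest from its group mean. The CPM of cd74a ran from 140 in GFP 4 to 812 in GFP 2 and from 498 in MyrRSK 2 to 1662 in MyrRSK 6, with overlapping groups. brat1 (r = 0.89), il4 (0.88), RNF208 (0.88), si:ch1073-403i13.1 (0.88), sertad2b (0.88), BX950862.5 (0.87) and zgc:136605 (0.87) followed. Of these, brat1, RNF208 and sertad2b kept r at 0.84 or above without GFP 6 and GFP 4, and il4 and si:ch1073-403i13.1 went to 0.69. The median r over all genes compared was -0.02, and 46 were above 0.8. si:ch211-212d10.1 was at 0.85 on this measure and il13 at 0.79. These are the highest of 20768 correlations, each over only 12 libraries.

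**Figure D5:**
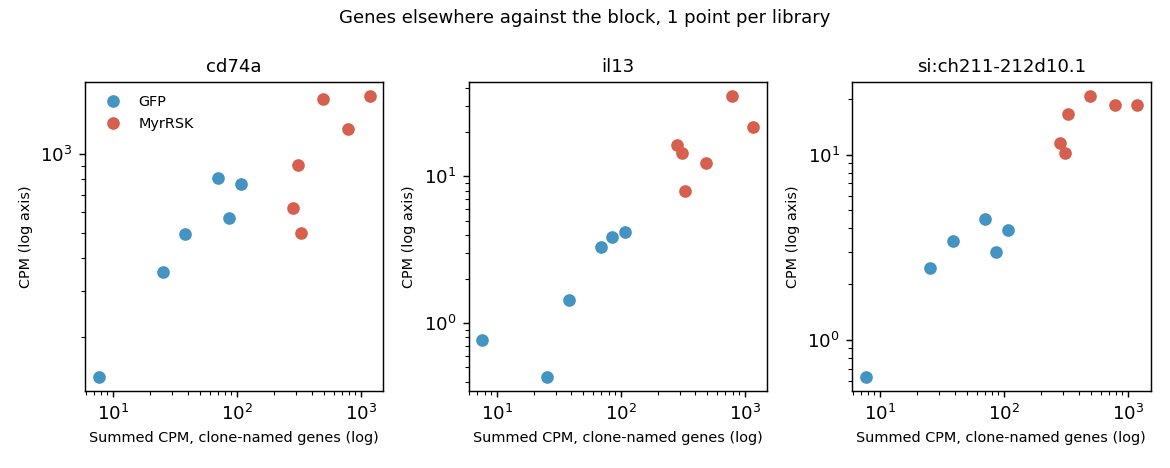
CPM of cd74a, il13 and si:ch211-212d10.1 against the summed CPM of the clone-named genes, log axes, 1 point per library, GFP in blue and MyrRSK in red. cd74a follows the block within each group (r = 0.96 in GFP and 0.78 in MyrRSK) with overlapping levels, while il13 and si:ch211-212d10.1 also separate the groups.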

How the data were processed

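A single table of all 12 libraries was used. It holds whole-number counts deposited by the authors, 1 column per library and 1 row per gene. A second column per library is a signal made by the authors, the count divided by 1 size factor per library (their ratio varied by at most 9.84e-10 within a library). The authors also deposited log2 fold changes, standard errors, a test score and p-values of their own. Per the submitters' processing notes, STAR 2.6.1d, HTSeq 0.6.0, DESeq2 and Zv9 were used. No source used here gives the annotation release or the strand setting of the counting. The lowest mean normalized count listed is 5.08.

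Clone prefixes were matched on the table's own symbol (4 genes) or on a table of current names (20 genes). Groups come from the sample labels. Counts were fitted with edgeR 4.0.16 (TMM, default filter on low counts, robust quasi-likelihood test, 26866 genes, Benjamini-Hochberg adjustment, threshold 0.05) in R 4.3.3, with DESeq2 1.42.0 as an alternative. Log2 CPM used a prior count of 1. On simulated counts the edgeR steps called 83 of 100 genes changed 8-fold, 5 of 100 changed 2-fold and 3 unchanged genes out of 26861. The changed genes were drawn at random above a floor on the mean count, with changes in both directions. Clone-named genes varied more within groups (median SD of log2 CPM 1.53 in GFP and 1.16 in MyrRSK, against 0.66 and 0.50 over all genes tested). These rates therefore need not hold for them. Python 3.11.15 and matplotlib 3.10.9 were used for summaries. No sequence of these genes was used here.

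The members, lists and tests were chosen with earlier results of these data known. Genes named are all clone-named genes (full values for the 12 with the highest mean CPM and for any called), the inner and flanking genes at the edges, with the highest means or called, those of each related list with the smallest p or highest mean as far as a result turns on them, and the 8 most correlated genes elsewhere. Other flanking genes were named to account for every gene of the window. Alternatives were DESeq2, its size factors, other filters, leaving out each library, a replicate block and leaving out both GFP 1 and GFP 2 or both MyrRSK 2 and MyrRSK 4, the last pairs chosen after seeing the data.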

Additional observations from a re-analysis of the deposited data

Results flagged for a closer look

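In 9 of 88 groups of 6 libraries, 1 library lay so far from the others that its gap to the nearest exceeded Dixon's critical share of the group's range. That limit is set for 1 in 20 groups of independent, normally distributed values. These groups are CPM values that share the same 12 libraries, so the 9 are not set against that rate. MyrRSK 6 stood above its group in 3 genes of the block, at 30 CPM in si:dkey-78l4.3 (next 12.3), 3.23 in ENSDARG00000093450 (next 1.23) and 2.83 in si:dkey-78l4.12 (next 1.09). GFP 6 stood above the GFP group in 3, at 1.2 CPM in si:dkey-21e2.5 (next 0.39), 9.15 in ENSDARG00000093843 (next 3.12) and 2.92 in si:dkey-21e2.14 (next 1.02). Both tumours were the highest of their groups in the summed clone-named genes. In the flanks fstl3 was at 10.1 CPM in GFP 1 (next 2.22), the left 5S_rRNA copy at 0.378 in GFP 5 (next 0.195), and ENSDARG00000092877 at 14.9 in MyrRSK 3 (next 1.91). The summed clone-named and flanking CPM had no such library.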

How the results depend on the processing

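No clone-named gene changed direction in any of the 19 alternatives that fitted it (with a mean count of at least 100, only 19 of the 24 were fitted), with log2 fold changes from 1.15 (si:dkey-21e2.5 with the replicate block) to 4.57, but calls did not hold. Clone-named genes called higher (8) were 23 with DESeq2, 2 with the replicate block, 1 without both GFP 1 and GFP 2, 0 without both MyrRSK 2 and MyrRSK 4, and 0 to 10 when 1 library was left out. All genes called higher (78) were 798 with DESeq2, 6 with the replicate block, 23 without both GFP 1 and GFP 2, 1 without both MyrRSK 2 and MyrRSK 4, and 1 to 104 leaving out 1 library. All genes called lower (31) were 65 among genes with a mean count of at least 100, 775 with DESeq2, 0 with the replicate block (1310 at an unadjusted p under 0.05), 7 without both GFP 1 and GFP 2, 0 without both MyrRSK 2 and MyrRSK 4 (1494 unadjusted), and 0 to 84 leaving out 1 library. Other inner genes called (0) were 3 with DESeq2 and 0 to 1 leaving out 1 library. Genes called in the related and marker lists (3) were 34 with DESeq2, 0 with the replicate block (52 unadjusted), 0 without GFP 1 and GFP 2 (61 unadjusted) or without MyrRSK 2 and MyrRSK 4 (48 unadjusted), and 0 to 9 leaving out 1 library. The cause of these changes was not tested. Leaving out 1 library, hsd11b3a ran from -0.25 to 0.01, turning positive without GFP 3 and to 0.00 without MyrRSK 2 (0.04 without both GFP 1 and GFP 2), and POLRMT from -0.07 (without GFP 6 or MyrRSK 3) to 0.21. No pairing by replicate number was seen: correlations of same-numbered libraries ran from -0.148 to 0.103 and 0 libraries correlated best with their own number. The labels do not say whether the numbers pair the samples, and these correlations cannot exclude it. With the replicate block the median log2 fold change of the clone-named genes was 3.52. Counts of 0 in at least 1 tumour limit si:dkey-78l4.11, si:dkey-21e2.6, BX936298.2, ENSDARG00000093450 and the inner 5S_rRNA copy. For si:dkey-21e2.6 the 0 was in MyrRSK 1, which had 52745 clone-named counts. The cause of the 0 counts was not tested.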
